A study of Mus musculus with 24 samples.

Results

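The genes of the phospholipase D and glycerophosphodiesterase family were described in the kidneys of hypertensive BPH/2J mice and normotensive BPN/3J mice. Members were the probe sets of the array whose only gene symbol was *Pld1*, *Pld2*, *Pld3*, *Pld4*, *Pld6*, *Gdpd1*, *Gdpd2*, *Gdpd3*, *Gdpd5* or *Gde1*, with the probe set of the highest mean level standing for its gene. All 10 genes were found, on 12 probe sets, among 18782 genes that had a probe set of their own. The family was chosen by the measured strain differences of *Pld1* and *Gdpd3*, which were already known to be large, so for these genes the strain values are a description with no test. The other 8 members were tested for strain, and all 10 for sex.

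BPH/2J and BPN/3J are inbred strains that were bred from one mixed stock for high and for normal blood pressure. Kidney RNA of 24 mice, all 12 weeks old, was hybridised to Affymetrix Mouse Gene 1.0 ST arrays, each from a different animal. The males and the females of each strain make 4 groups of 6 arrays. Values are log2 expression after RMA, a method that corrects the background, normalises between arrays and summarises the probes of a probe set. Mice of inbred strains differ at many loci, so a strain difference in RNA cannot be tied by these groups to blood pressure. A probe set has its own affinity, so levels were compared between groups and never between genes. Whether the strains differ in sequence under the probes was not tested.

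Phospholipases D cleave the head group from membrane phospholipids, and the classical members *Pld1* and *Pld2* release choline from phosphatidylcholine and leave phosphatidic acid, a lipid messenger of vesicle traffic and actin control. Other proteins that share their catalytic motif have other substrates. *Pld3* and *Pld4* encode exonucleases of endosomes and lysosomes that degrade single-stranded nucleic acids, and *Pld6* encodes a protein of the outer mitochondrial membrane needed for piRNA formation and mitochondrial fusion. Glycerophosphodiester phosphodiesterases split the head group from glycerol phosphate. GDPD1 (also called GDE4) and GDPD3 (GDE7) act as lysophospholipases D, which make lysophosphatidic acid, while GDE1 acts on glycerophosphoinositol and glycerophospho-N-acylethanolamines. GDPD5 (GDE2) hydrolyses glycerophosphocholine, an osmolyte that protects cells of the renal medulla from high salt and urea, and GDPD2 (GDE3) cleaves glycerophosphoinositol.

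The arrays were close in overall level, with medians from 6.89 to 6.97 and correlations between arrays of a group from 0.981 to 0.997. The medians were 6.889 to 6.927 in BPN/3J males and 6.921 to 6.971 in BPN/3J females. In BPH/2J they were 6.891 to 6.915 in males and 6.932 to 6.951 in females, with no overlap. The mean of 10 kidney markers stood between 12.14 and 12.27 in males and between 12.30 and 12.44 in females, with no overlap. Transcripts of neighbouring organs varied within groups. The mean of 18 hepatocyte markers ran from 6.43 to 11.81 among BPN/3J females, with arrays 2 and 5 highest, and 6.28 to 9.41 over the other groups. The mean of 9 adrenal cortex markers had medians of 6.50 and 6.72 in BPN/3J and BPH/2J males but 9.11 and 9.58 in BPN/3J and BPH/2J females. The mean of 9 adipocyte markers did not overlap between the strains in females, at 8.64 to 9.35 in BPN/3J and 9.42 to 10.26 in BPH/2J, and overlapped in males (8.61 to 9.67 and 9.22 to 9.73). Of these 9, 4 were higher and 0 lower in BPH/2J females, *Ucp1* by 3.50 (SE 0.435), and 1 was higher and 1 lower in males. Over all probe sets 8.01% were higher and 6.48% lower in BPH/2J females, and 7.48% and 7.7% in BPH/2J males. The hepatocyte and adrenal cortex means were used as covariates in an alternative fit. The adipocyte mean was not, and its part in the strain differences of females was not tested.

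*Gdpd3* and *Gdpd1* encode the lysophospholipases D of the family, and both were higher in BPH/2J kidneys of each sex. The bases just before the RefSeq start of each gene are shown because this pair shares a product and a direction of strain difference. They are the reference sequence of C57BL/6J (GRCm38.p6) and not of either strain studied. The *Gdpd3* window is chr7:126766164-126766413 on the plus strand and the *Gdpd1* window is chr11:87074138-87074387 on the minus strand, each read 5′ to 3′ in the direction of its gene:
Gdpd3: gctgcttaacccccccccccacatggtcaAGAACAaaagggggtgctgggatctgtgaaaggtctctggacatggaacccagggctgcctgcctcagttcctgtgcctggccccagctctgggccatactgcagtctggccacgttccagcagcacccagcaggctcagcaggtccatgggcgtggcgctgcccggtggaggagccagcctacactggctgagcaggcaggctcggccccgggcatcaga
Gdpd1: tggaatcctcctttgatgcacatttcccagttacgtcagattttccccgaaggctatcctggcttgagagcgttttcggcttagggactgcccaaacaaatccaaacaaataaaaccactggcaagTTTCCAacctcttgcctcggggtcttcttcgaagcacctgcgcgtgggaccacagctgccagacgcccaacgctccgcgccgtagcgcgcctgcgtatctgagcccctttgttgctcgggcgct

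Capitals mark the motifs found by a search of 5 on both strands. AGAACA, the core bound by androgen and glucocorticoid receptors, starts 221 bases before the *Gdpd3* start and is present in 16.1% of 32851 mouse windows of the same length. TTTCCA, the reverse complement of the NFAT core TGGAAA, starts 124 bases before the *Gdpd1* start, and the core is present in 18.6% of windows. The letters TATAAA (12.4% of windows), CCAAT (33.8%) and GGGCGG (32.7%) were in neither window. The *Gdpd1* window holds 18 CpG dinucleotides, more than 78.3% of windows, and the *Gdpd3* window holds 6, which is the median of all. These matches describe the letters of the reference and were not tested for binding.

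*Gdpd3* had the largest strain difference of the family. In males its level ran from 8.17 to 8.31 (median 8.26) in BPN/3J and from 10.52 to 10.73 (median 10.73) in BPH/2J. In females it ran from 8.98 to 9.42 (median 9.14) in BPN/3J and from 10.67 to 11.04 (median 10.82) in BPH/2J. Every BPH/2J kidney stood above every BPN/3J kidney of its sex, and the BPN/3J females stood apart from the BPN/3J males. The BPH/2J level was 5.36-fold that of BPN/3J in males (log2 difference 2.42, SE 0.0453, n = 6 per strain) and 3.17-fold in females (1.66, SE 0.0858). The order of the group means was BPN/3J males, BPN/3J females, BPH/2J males, BPH/2J females, with the last pair overlapping. The difference between the strain effects of females and males was −0.76 (SE 0.0985), given like the strain values without a test.

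**Figure D1:**
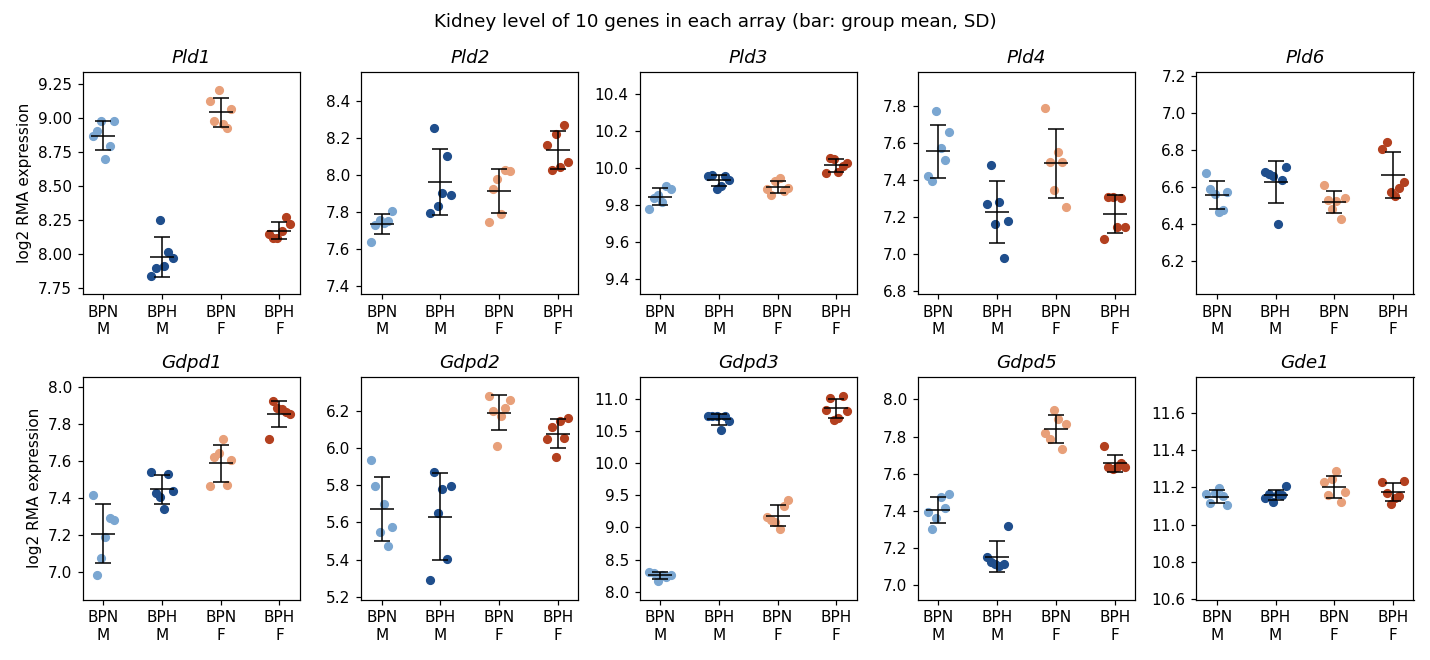
Level of each of the 10 genes in each array (y axis, log2 RMA expression, a separate scale for each gene) by group (x axis: BPN, BPN/3J; BPH, BPH/2J; M, males; F, females). Points are arrays and bars are group means with SD (n = 6); the BPH/2J arrays lie at 10.52 and above for *Gdpd3* and at 8.27 and below for *Pld1*, clear of the BPN/3J arrays of their sex.

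*Pld1*, one of the classical choline-releasing enzymes, went the other way. Its level was 8.70 to 8.98 (median 8.89) in BPN/3J males and 7.84 to 8.25 (median 7.94) in BPH/2J males. In females it was 8.93 to 9.20 (median 9.02) in BPN/3J and 8.12 to 8.27 (median 8.16) in BPH/2J. No BPH/2J kidney reached the lowest BPN/3J kidney in either sex. The BPH/2J level was 1.86-fold lower in males (log2 difference −0.89, SE 0.0709) and 1.83-fold lower in females (−0.87, SE 0.0521), and the strain effects differed between the sexes by 0.02 (SE 0.0891).

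Among the 8 members tested for strain, *Gdpd1* was upregulated and *Pld4* and *Gdpd5* were downregulated in BPH/2J kidneys of both sexes, and *Pld2* and *Pld3* were upregulated in females, by a Benjamini-Hochberg adjusted p under 0.05 in limma. That is 1 higher, 2 lower and 5 not passing in males, where 15.2% of all probe sets were called (7.48% higher, 7.7% lower). In females 3 were higher, 2 were lower and 3 did not pass, where 14.5% of all probe sets were called (8.01% higher, 6.48% lower). The median log2 difference of all 10 members was 0.04 in each sex, beside 0.00 in males and 0.02 in females over all probe sets. At the Bonferroni threshold of the methods, which called 2.56% of probe sets in males and 2.36% in females, 0 of the 8 were called in either sex. Of the 8, 5 in males and 7 in females had an unadjusted limma p under 0.05, and the methods' t-test called 0 in each sex after Bonferroni and 3 in each sex after Benjamini-Hochberg adjustment.

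*Gdpd1* was 6.98 to 7.42 (median 7.24) in BPN/3J males and 7.34 to 7.54 (median 7.43) in BPH/2J males. It was 7.46 to 7.72 (median 7.61) in BPN/3J females and 7.72 to 7.92 (median 7.87) in BPH/2J females. The strains overlapped among males and touched at 7.72 among females. The log2 difference was 0.24 in males (SE 0.0687, limma with Benjamini-Hochberg adjusted p = 0.0312) and 0.27 in females (SE 0.0515, adjusted p = 0.00316). The call in males was lost without BPN/3J male array 2, 3 or 4 or without BPH/2J male array 1, 5 or 6 (log2 difference 0.19 to 0.24, adjusted p = 0.0538 to 0.0694), and with the methods' t-test (adjusted p = 0.0743).

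*Gdpd5*, the glycerophosphocholine hydrolase, was 7.30 to 7.49 (median 7.40) in BPN/3J males and 7.10 to 7.32 (median 7.12) in BPH/2J males. In females it was 7.73 to 7.94 (median 7.84) in BPN/3J and 7.62 to 7.75 (median 7.64) in BPH/2J. A lone BPH/2J array in each sex reached the range of BPN/3J, number 6 in males and number 1 in females. The log2 difference was −0.25 in males (SE 0.0479, limma with Benjamini-Hochberg adjusted p = 0.0024) and −0.18 in females (SE 0.0414, adjusted p = 0.00834), and both calls were kept whichever array was left out.

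*Pld4*, which is known from dendritic cells, B cells and microglia, was 7.39 to 7.77 (median 7.54) in BPN/3J males and 6.98 to 7.48 (median 7.22) in BPH/2J males. It was 7.25 to 7.79 (median 7.50) in BPN/3J females and 7.08 to 7.31 (median 7.23) in BPH/2J females. The ranges overlapped in both sexes. The log2 difference was −0.33 in males (SE 0.0834, limma with Benjamini-Hochberg adjusted p = 0.0161) and −0.27 in females (SE 0.0807, adjusted p = 0.0382). The call in females was lost without BPN/3J female array 1, 2, 4 or 5 or without BPH/2J female array 1, 4 or 6 (log2 difference −0.27 to −0.21, adjusted p = 0.0546 to 0.0849). It was also lost without BPN/3J female arrays 2 and 5 together, the arrays rich in hepatocyte transcripts (−0.27, adjusted p = 0.117), and with the methods' t-test (adjusted p = 0.0836).

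Some macrophage and myeloid markers were lower in BPH/2J, as *Pld4* was. Of 14 such markers, 6 were lower and 0 higher in BPH/2J males (*Adgre1*, *Csf1r*, *Ctss*, *C1qb*, *C1qc* and *Mpeg1*, median log2 difference of the list −0.20), and 3 were lower and 0 higher in females (*Adgre1*, *C1qb* and *C1qc*, median −0.17). Over all probe sets 7.7% were lower in males and 6.48% in females. In males the mean of the markers was 7.91 to 8.14 for BPN/3J and 7.75 to 7.99 for BPH/2J, and in females it was 7.82 to 8.38 for BPN/3J and 7.75 to 8.12 for BPH/2J. Of 9 B cell and plasmacytoid dendritic cell markers, 0 passed in males, and 1 (*Tcf4*) was higher in BPH/2J females. The part of these cells in the difference was not tested, and in whole kidney RNA fewer cells of a type and less RNA per cell cannot be told apart.

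**Figure D2:**
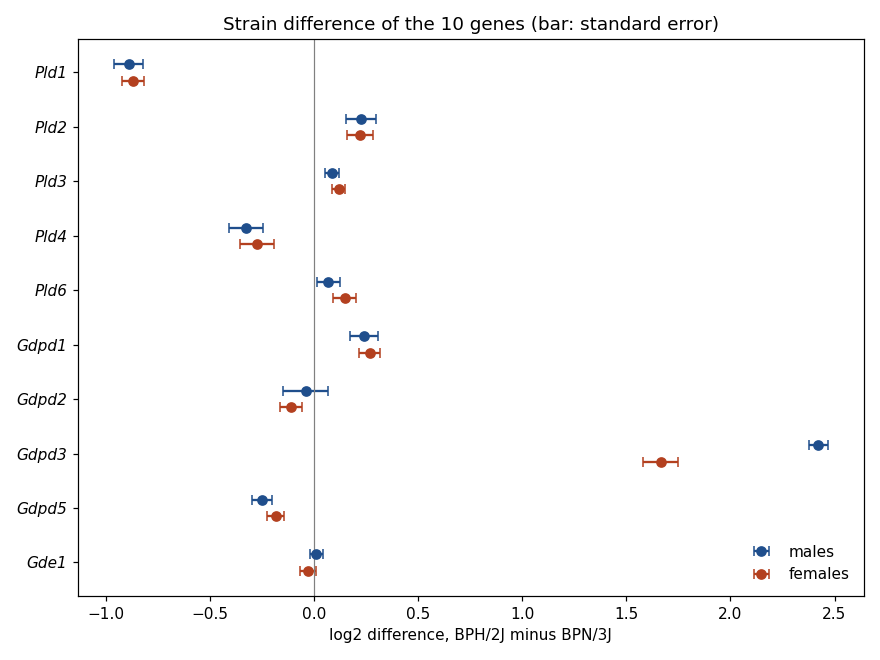
Log2 difference of each gene (y axis) between the strains (x axis, BPH/2J minus BPN/3J), with males in blue and females in red; bars are standard errors (n = 6 per strain). *Gdpd3* lies at 2.42 and 1.66 and *Pld1* at −0.89 and −0.87, while the other 8 genes lie between −0.33 and 0.27.

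*Pld2* and *Pld3* were called for strain in females. *Pld2*, the other choline-releasing enzyme, was 7.75 to 8.03 (median 7.95) in BPN/3J females and 8.03 to 8.27 (median 8.12) in BPH/2J females, a log2 difference of 0.22 (SE 0.0627, limma with Benjamini-Hochberg adjusted p = 0.0328). In males it was 7.64 to 7.80 (median 7.75) in BPN/3J and 7.79 to 8.25 (median 7.90) in BPH/2J, a log2 difference of 0.23 (SE 0.0721) that did not pass (adjusted p = 0.0518), though it passed under 4 of 11 alternatives such as all 24 arrays in 1 fit (adjusted p = 0.0245). The call in females was lost without BPN/3J female array 1, 2 or 4 or without BPH/2J female array 1, 3 or 5 (0.19 to 0.22, adjusted p = 0.0567 to 0.0711) and with the methods' t-test (adjusted p = 0.0528). Without BPH/2J male array 1 or 3 the difference in males passed (0.26 and 0.25, adjusted p = 0.0307 and 0.0441). A dimmer probe set of *Pld2* had log2 differences of −0.05 in males and 0.05 in females, and neither passed.

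*Pld3* showed a small and narrow difference. It was 9.85 to 9.94 (median 9.89) in BPN/3J females and 9.97 to 10.05 (median 10.02) in BPH/2J females, which did not overlap (log2 difference 0.12, SE 0.0316, limma with Benjamini-Hochberg adjusted p = 0.0232). In males it was 9.78 to 9.90 (median 9.85) in BPN/3J and 9.89 to 9.96 (median 9.94) in BPH/2J, and the difference of 0.09 (SE 0.0344) did not pass (adjusted p = 0.118). It passed in males with the methods' t-test (adjusted p = 0.0322), with pooled variances (adjusted p = 0.0253), with all 24 arrays in 1 fit (adjusted p = 0.0365) and with dim probe sets left out (adjusted p = 0.0488). The call in females was lost without BPN/3J female array 2 or BPH/2J female array 2 (0.11 and 0.11, adjusted p = 0.0543 and 0.056), without BPN/3J female arrays 2 and 5 together (0.10, adjusted p = 0.114) and with the hepatocyte and adrenal cortex means as covariates (0.11, adjusted p = 0.0606).

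*Pld6*, *Gdpd2* and *Gde1* did not pass for strain in either sex. *Gde1* had the narrowest range, with all 24 arrays between 11.10 and 11.29. Its log2 difference was 0.01 in males (95% confidence interval −0.06 to 0.08) and −0.03 in females (−0.11 to 0.05). *Pld6* ran from 6.40 to 6.84 over all arrays and differed by 0.07 in males (SE 0.0567) and 0.15 in females (SE 0.057). *Gdpd2*, the only member whose mean of 5.89 was under the 40th percentile of all probe sets (6.21), differed by −0.04 in males (SE 0.108) and −0.11 in females (SE 0.0515). For none of the 8 members did the strain effects of the sexes differ in limma: the interactions had sizes of 0.01 to 0.08, the lowest adjusted p was 0.731, and 0 had an unadjusted p under 0.05, beside 1.76% of all probe sets called.

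Between the sexes, every member that was called was higher in females, and most of those called were glycerophosphodiesterases. *Gdpd1*, *Gdpd2*, *Gdpd3*, *Gdpd5* and *Pld2* were higher in females of BPN/3J, and *Gdpd1*, *Gdpd2*, *Gdpd5* and *Pld1* were higher in females of BPH/2J (limma with Benjamini-Hochberg adjusted p under 0.05). In BPN/3J 5 of 10 members were higher, 0 lower and 5 not passing, where 29.2% of all probe sets were called (14.4% higher, 14.8% lower). In BPH/2J 4 of 10 were higher, 0 lower and 6 not passing, where 28.9% were called (15.6% higher, 13.4% lower). The median log2 difference of the 10 members was 0.17 in each strain, beside −0.02 in BPN/3J and −0.00 in BPH/2J over all probe sets. Without *Pld1* and *Gdpd3*, 4 of 8 members were higher in BPN/3J females and 3 of 8 in BPH/2J females, with 0 lower in each. The sex comparisons use the same arrays as the strain comparisons, so their values are not separate evidence.

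*Gdpd5* was higher in every female than in every male of its strain, by 0.44 on the log2 scale in BPN/3J (SE 0.046, limma with Benjamini-Hochberg adjusted p = 1.12e-05) and by 0.50 in BPH/2J (SE 0.0434, adjusted p = 1.79e-06). *Gdpd1* likewise had no overlap between the sexes, with differences of 0.38 in BPN/3J (SE 0.0729, adjusted p = 0.00147) and 0.41 in BPH/2J (SE 0.0459, adjusted p = 1.9e-05). These were 1.35-fold and 1.42-fold differences for *Gdpd5* and 1.30-fold and 1.33-fold differences for *Gdpd1*. With the hepatocyte and adrenal cortex means as covariates the differences were 0.44 and 0.51 for *Gdpd5* and 0.39 and 0.44 for *Gdpd1*, and each was called.

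*Gdpd2* lies on the X chromosome and was 5.47 to 5.94 (median 5.64) in BPN/3J males and 6.01 to 6.28 (median 6.21) in BPN/3J females. It was 5.29 to 5.87 (median 5.71) in BPH/2J males and 5.95 to 6.16 (median 6.08) in BPH/2J females. The sexes did not overlap in either strain. The log2 difference was 0.52 in BPN/3J (SE 0.0764, limma with Benjamini-Hochberg adjusted p = 0.000184) and 0.45 in BPH/2J (SE 0.0932, adjusted p = 0.00253). Another probe set of the gene, with a mean of 4.66, gave 0.00 and −0.01 and did not pass, and the mean of both probe sets gave 0.26 and 0.22, each called.

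*Gdpd3* was 1.9-fold higher in females of BPN/3J (log2 difference 0.93, SE 0.0679, limma with Benjamini-Hochberg adjusted p = 3.9e-07), with no overlap. The BPN/3J males of this comparison also enter the male strain difference by which the gene was chosen. This p is therefore not independent of that choice. In BPH/2J the difference was 0.17 (SE 0.0688, adjusted p = 0.0913) and did not pass, except without BPH/2J female array 3 (0.20, adjusted p = 0.0434) and after quantile normalization (0.20, adjusted p = 0.0453). The difference between these sex effects is the interaction of −0.76 given above. With the marker means as covariates the sex difference in BPN/3J was 0.95 (adjusted p = 1.66e-06).

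**Figure D3:**
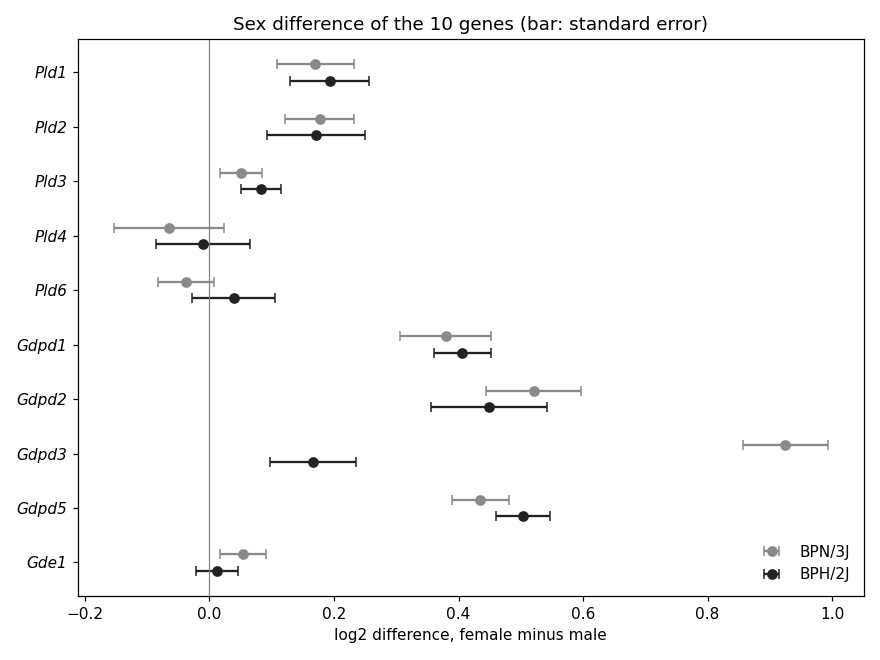
Log2 difference of each gene (y axis) between the sexes (x axis, female minus male), in BPN/3J and in BPH/2J; bars are standard errors (n = 6 per sex). *Gdpd1*, *Gdpd2* and *Gdpd5* lie between 0.38 and 0.52 in both strains, and *Gdpd3* lies at 0.93 in BPN/3J and at 0.17 in BPH/2J.

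*Pld1* and *Pld2* had like, small differences between the sexes. The arrays compared also enter the strain differences by which *Pld1* was chosen. Its p-values here are therefore not independent of that choice. For *Pld1* the log2 difference was 0.17 in BPN/3J (SE 0.0616, limma with Benjamini-Hochberg adjusted p = 0.0543) and 0.19 in BPH/2J (SE 0.0631, adjusted p = 0.0351). It passed in BPN/3J without male array 3 or 6 or female array 5 (0.19, adjusted p = 0.0395 to 0.0429), and the call in BPH/2J was lost without male array 1, 2, 4, 5 or 6 or female array 1, 4, 5 or 6 (0.16 to 0.20, adjusted p = 0.0506 to 0.076). With the hepatocyte and adrenal cortex means as covariates the difference passed in BPN/3J (0.21, adjusted p = 0.0291) and the call in BPH/2J was lost (0.19, adjusted p = 0.116). The call in BPH/2J was also lost with the methods' t-test (adjusted p = 0.0717), a common median (0.15, adjusted p = 0.0837) and quantile normalization (0.16, adjusted p = 0.0809), and in BPN/3J the difference passed under 7 of 12 alternatives. For *Pld2* it was 0.18 in BPN/3J (SE 0.0547, adjusted p = 0.027) and 0.17 in BPH/2J (SE 0.0785, adjusted p = 0.131). The *Pld2* call in BPN/3J was lost without male array 1 or female array 3, 5 or 6 (0.15 to 0.16, adjusted p = 0.0565 to 0.0608) and in the mean with its other probe set (0.05, adjusted p = 0.353). It was also lost with a common median (0.14, adjusted p = 0.0865), quantile normalization (0.11, adjusted p = 0.157), all 24 arrays in 1 fit (adjusted p = 0.0537) and without BPN/3J female arrays 2 and 5 (0.15, adjusted p = 0.111). Without BPH/2J male array 2 the difference in BPH/2J passed (0.23, adjusted p = 0.0196).

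*Pld3*, *Pld4*, *Pld6* and *Gde1* did not pass between the sexes of either strain. *Pld3* did not overlap between the sexes of BPH/2J, with a difference of 0.08 (SE 0.0318, limma with Benjamini-Hochberg adjusted p = 0.0697) that did not pass. It passed under 6 of 11 alternatives, with the methods' t-test (adjusted p = 0.00956), pooled variances (adjusted p = 0.00851), all 24 arrays in 1 fit (adjusted p = 0.0297), a robust, trended variance model (adjusted p = 0.0465), quantile normalization (0.10, adjusted p = 0.0268) and dim probe sets left out (adjusted p = 0.0242). Under the rest of the alternatives *Pld3* did not pass, with a difference as low as 0.04 and an adjusted p as high as 0.405. The differences of *Pld4*, *Pld6* and *Gde1* ran from −0.06 to 0.05, and in BPH/2J those of *Pld6* (0.04) and *Gde1* (0.01) turned to −0.00 and −0.03 when the arrays were shifted to a common median.

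Some genes of the medullary osmolytes, of the collecting duct and of the kidney markers at large were higher in females, as *Gdpd5* was. Of 8 measured genes of glycerophosphocholine and medullary osmolytes, 4 were higher and 0 lower in BPN/3J females, and 5 were higher and 1 lower in BPH/2J females, with medians of 0.29 and 0.28. Over all probe sets 14.4% were higher and 14.8% lower in BPN/3J females, and 15.6% and 13.4% in BPH/2J females. *Nfat5*, the transcription factor of the osmotic response, was higher in females by 0.34 (SE 0.0424) and 0.40 (SE 0.0446) in BPN/3J and BPH/2J, and *Slc5a3*, the myo-inositol transporter, by 0.36 (SE 0.049) and 0.27 (SE 0.0669). The mean of the list was 9.72 to 9.88 over males and 9.95 to 10.06 over females, with no overlap. Of 8 markers of collecting duct and medulla, 4 were higher and 1 lower in BPN/3J females and 5 higher and 0 lower in BPH/2J females. Of the 10 kidney markers, 6 were higher and 1 lower in BPN/3J females and 7 higher and 2 lower in BPH/2J females, with medians of 0.18 and 0.17. *Slc14a2*, a urea transporter, counts in the osmolyte and the collecting duct list, and the part of these tissues in the members' sex differences was not tested.

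Between the strains, 1 of the 8 measured osmolyte genes was higher and 2 were lower in BPH/2J males. In BPH/2J females 2 of the 8 were higher and 1 was lower. Over all probe sets 15.2% were called for strain in males (7.48% higher, 7.7% lower) and 14.5% in females (8.01% higher, 6.48% lower). *Slc5a3* was higher in BPH/2J by 0.41 in males (SE 0.0677) and 0.32 in females (SE 0.0476). *Pnpla6*, a lysophospholipase that yields glycerophosphocholine, was lower by −0.18 (SE 0.0362) and −0.33 (SE 0.0397). *Slc6a12*, the betaine transporter, was lower in males (−0.37, SE 0.105) and had a log2 difference of −0.39 (SE 0.145) in females that did not pass.

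Around the classical enzymes, 3 of 19 activators of phospholipase D were lower and 0 higher in BPH/2J males, and 4 were lower and 0 higher in females. Over all probe sets 15.2% were called in males (7.7% lower) and 14.5% in females (6.48% lower). The share of activators called in either direction was near that of all probe sets in males and above it in females. The share that was lower was above that of all probe sets in both sexes, and the list was not tested as a set. *Arf6*, a small GTPase that stimulates phospholipase D at the plasma membrane, was lower by −0.45 in males (SE 0.0508, limma with Benjamini-Hochberg adjusted p = 3.04e-05) and −0.38 in females (SE 0.0438, adjusted p = 5.62e-05). *Cyth2*, an exchange factor that loads ARF proteins with GTP, was lower by −0.27 (SE 0.0463) and −0.18 (SE 0.0467), and *Ralb* was lower in males. *Prkca* (−0.16, SE 0.0418) and *Ralgds* (−0.20, SE 0.0387) were lower in females, and in males their differences of −0.11 and −0.11 did not pass. The median of the list was −0.09 in males and −0.04 in females, beside 0.00 and 0.02 over all probe sets.

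The list for lysophosphatidic acid, the product of GDPD1 and GDPD3, held 16 measured genes. It includes relatives such as *Plppr1*, *Lyplal1* and *Enpp6*, so it is not limited to genes that make, bind or remove this lipid. In BPH/2J kidneys of each sex 4 were higher and 2 lower, where 15.2% of all probe sets were called in males and 14.5% in females. *Plppr1*, a brain-enriched relative of the lipid phosphate phosphatases, was higher by 1.61 in males (SE 0.12) and 1.57 in females (SE 0.176). *Lyplal1*, a lysophospholipase-like hydrolase, was higher by 0.87 in males (SE 0.0651) and 0.26 in females (SE 0.0398), and these effects differed (interaction −0.60, SE 0.076, limma with Benjamini-Hochberg adjusted p = 2.7e-05). It was also higher in females than in males, by 1.33 in BPN/3J (SE 0.0466) and 0.73 in BPH/2J (SE 0.0607). The receptor gene *Lpar6* was higher by 0.22 (SE 0.0657) and 0.25 (SE 0.0516). *Enpp6*, a choline-specific glycerophosphodiesterase of the kidney, was lower by −0.26 (SE 0.0562) and −0.38 (SE 0.0538).

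Among 14 genes of N-acylethanolamines and endocannabinoids, the pathway of *Gde1*, BPH/2J had 3 higher and 1 lower in males and 1 higher and 1 lower in females, the latter a share near the 14.5% of all probe sets called (15.2% in males). *Faah*, the hydrolase that ends the signal of anandamide, was lower by −0.41 in males (SE 0.0466, limma with Benjamini-Hochberg adjusted p = 3.13e-05) and −0.33 in females (SE 0.0409, adjusted p = 9.64e-05), and was also lower in females than in males. *Abhd6*, a monoacylglycerol lipase, was higher by 0.24 (SE 0.0545) and 0.19 (SE 0.0521). *Mgll*, the main monoacylglycerol lipase, was higher in females by 0.87 (SE 0.0582) in BPN/3J and 0.78 (SE 0.0553) in BPH/2J.

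The remaining lists were counted between the strains in the same way, beside 15.2% of all probe sets called in males and 14.5% in females. Some of their shares were above these and some were near or below them. Of 20 measured genes of phosphatidic acid and diacylglycerol, BPH/2J had 2 higher and 4 lower in males and 2 higher and 2 lower in females, with *Lpin2* higher (0.27 and 0.21) and *Dgkz* lower (−0.21 and −0.23) in both sexes. Of 22 choline and phosphatidylcholine genes, 5 were higher and 0 lower in males and 3 higher and 1 lower in females, with *Slc44a3* (0.25 and 0.36) and *Chkb*, a choline kinase (0.26 and 0.18), higher in both. Of 10 genes of endolysosomal nucleic acid sensing, the setting of *Pld3* and *Pld4*, *Tlr3* (0.24 and 0.30) and *Tlr7* (0.28 and 0.38) were higher in both sexes and *Tlr8* was lower in males (−0.34). Of 11 genes of cardiolipin and mitochondrial fusion, the setting of *Pld6*, *Mfn2* was lower in both sexes (−0.26 and −0.27) and *Pgs1* was lower in females (−0.18). Of the 5 relatives of the family that were not members, *Gpcpd1*, a glycerophosphocholine phosphodiesterase, was lower in BPH/2J females (−0.20, SE 0.0428), and the other 4 passed in neither sex.

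**Figure D4:**
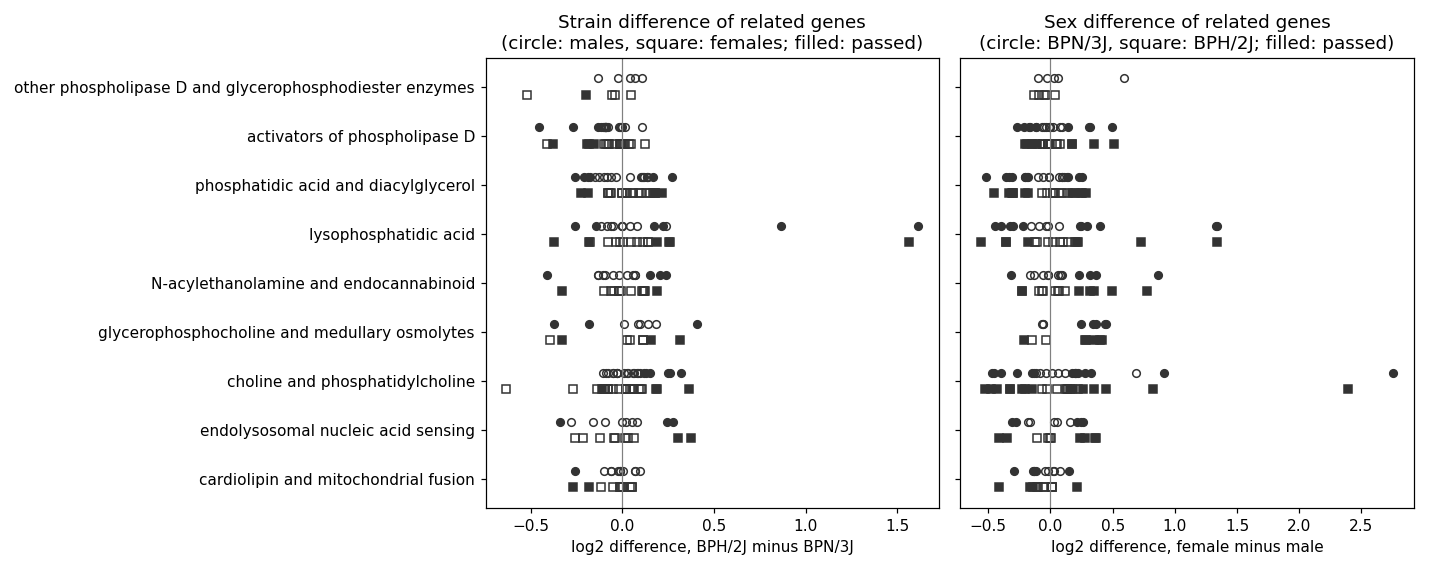
Log2 differences of the genes of 9 lists (rows) between the strains (left, BPH/2J minus BPN/3J; circles males, squares females) and between the sexes (right, female minus male; circles BPN/3J, squares BPH/2J). Each symbol is 1 gene and filled symbols passed a Benjamini-Hochberg adjusted p under 0.05; for activators of phospholipase D the filled strain symbols (3 and 4 of 19) lie below 0, and for medullary osmolytes most filled sex symbols lie above 0.

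Because *Gdpd3* and *Pld1* were chosen for large strain differences, the smaller differences of the genes measured beside them are a description and no test. Of the 3 nearest measured genes on each side of *Gdpd3* on chromosome 7 in the GRCm38.p6 reference order, *Ypel3* was higher in BPH/2J by 0.25 in males (SE 0.0445, limma with Benjamini-Hochberg adjusted p = 0.0014) and 0.23 in females (SE 0.0515, adjusted p = 0.00813), and *Slx1b*, *Bola2*, *Coro1a*, *Tbx6* and *Ppp4c* did not pass in either sex. Beside *Pld1* on chromosome 3, *Slc2a2*, the glucose transporter of proximal tubule and liver, was lower by −0.17 in males (SE 0.0468, adjusted p = 0.022) and −0.30 in females (SE 0.0442, adjusted p = 0.000441). Hepatocyte transcripts were highest in BPN/3J female arrays 2 and 5, and their part in the *Slc2a2* difference was not tested. *Ghsr*, *Fndc3b*, *Tmem212*, *Tnik* and *Eif5a2* did not pass. Of the other members, *Pld3*, *Gdpd5* and *Gde1* are also on chromosome 7, *Pld2*, *Pld6* and *Gdpd1* are on chromosome 11, and *Pld4* is on chromosome 12.

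**Figure D5:**
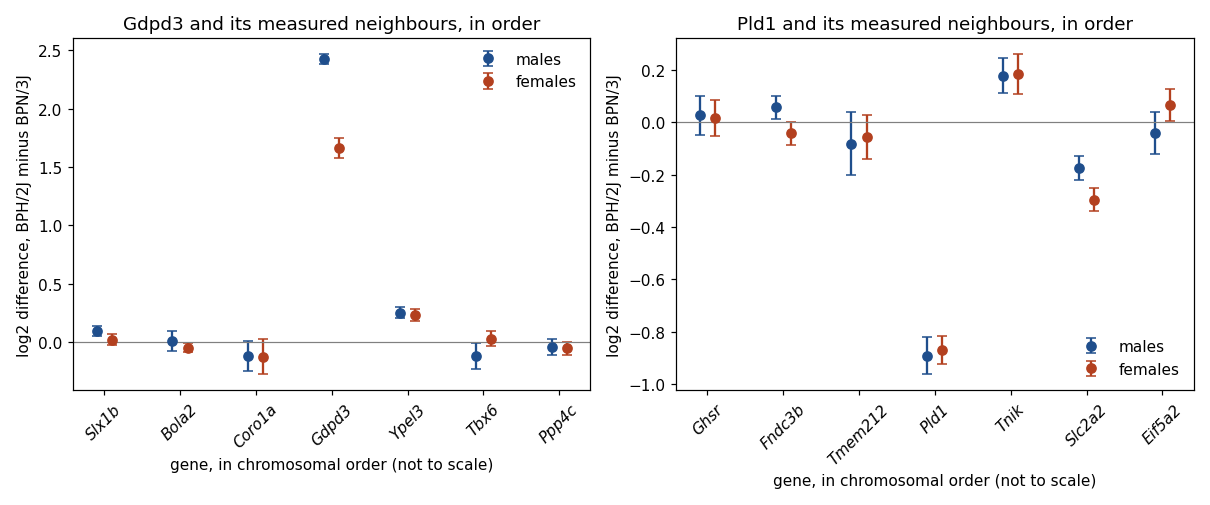
Log2 difference between the strains (y axis, BPH/2J minus BPN/3J) for *Gdpd3* (left) and *Pld1* (right) and the 3 nearest measured genes on each side (x axis, chromosomal order, not to scale); males in blue, females in red, bars standard errors (n = 6 per strain). The neighbours lie between −0.30 and 0.25, against 2.42 and 1.66 for *Gdpd3* and −0.89 and −0.87 for *Pld1*. *Gdpd3* and *Pld1* were chosen for large strain differences.

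Over the 24 arrays, the genes whose levels were most like those of *Gdpd3* among 18781 others were *Defb1* (Pearson r = 0.980), *Gas6* (0.976), *Uevld* (0.970), *Alad* (0.968) and *P2rx4* (0.967). For *Pld1* they were *4833420G17Rik* (0.969), *Tmem242* (0.969), *Ppwd1* (0.963), *Aadac* (0.963) and *Sectm1b* (0.962). The arrays share their group means in these values. After the group means were taken away, r was −0.25 to 0.40 for the genes named beside *Gdpd3* and 0.07 to 0.64 for those named beside *Pld1*. Between members, the deviations from the group means went together most for *Gdpd5* and *Gde1* (r = 0.57 over 24 arrays) and most oppositely for *Pld3* and *Gdpd2* (r = −0.50).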

How the data were processed

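Kidney RNA of 24 mice was measured on 24 Affymetrix Mouse Gene 1.0 ST arrays. RMA was run by the authors, and each deposited value is the log2 level of a probe set. No source used here gives the RMA version. RMA brings the distributions of the arrays close to each other, so shifts common to all genes cannot be measured. The deposited distributions were not identical, since the array medians of BPH/2J males and females did not overlap. Deposited values were used with no further normalisation or filter, except in the alternatives.

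Strain, sex and number of each array came from its label. Of 28853 probe sets, 21159 (73.3%) carried exactly 1 gene symbol in the platform annotation. A gene was represented by the single-symbol probe set with the highest mean. The members and gene lists were chosen with earlier results of these data known. Named were all members, up to 4 called genes of each list with the largest strain differences, the 5 genes most correlated with *Pld1* and *Gdpd3*, and their 3 nearest measured genes on each side. *Ralb* and the marker genes in the text are counted members of their lists.

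limma (version 3.58.1, R version 4.3.3) compared the strains within each sex and the sexes within each strain on 12 arrays, and the interaction on 24. Strain calls used Bonferroni adjustment, as in the methods, and Benjamini-Hochberg adjustment as another rule. All other calls used Benjamini-Hochberg at 0.05. Adjusted p-values of single genes are Benjamini-Hochberg values over all probe sets. The fits were tested on simulated data.

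Alternatives were the methods' t-test with unequal or with pooled variances, all 24 arrays in 1 fit, a trended and robust variance, a shift to a common median, quantile normalization, probe sets under the 40th percentile left out, single-symbol probe sets, the mean of a gene's probe sets, the replicate number as a block, marker means as covariates, BPN/3J female arrays 2 and 5 left out, and each array left out. Arrays carry no read depth, and their number limits the precision. Gene names, chromosomes and sequences were taken from RefSeq tables of GRCm38.p6. Promoter windows of *Gdpd3* and *Gdpd1*, the lysophospholipases D among the members, were printed. Figures used Python 3.11.15 and matplotlib 3.10.9.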

Additional observations from a re-analysis of the deposited data

Results flagged for a closer look

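Of the 40 sets of 6 arrays (10 genes in 4 groups), 5 held an array far from the rest by Dixon's test at the 95% level, which chance gives in about 5% of sets. *Pld6* was 6.40 in BPH/2J male 4 against 6.64 to 6.71 in the other 5 males. *Gdpd1* was 7.72 in BPH/2J female 1 against 7.85 to 7.92. *Gdpd3* was 10.52 in BPH/2J male 4 against 10.65 to 10.73. *Gdpd5* was 7.32 in BPH/2J male 6 against 7.10 to 7.15, and 7.75 in BPH/2J female 1 against 7.62 to 7.66. BPH/2J male 4 and BPH/2J female 1 each appear for 2 genes. Without the array that lay apart, no call of *Gdpd1* or *Gdpd5* changed between the strains or the sexes.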

How the results depend on the processing

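Of 41 results for single genes, 27 kept their direction and side of the threshold under every alternative other than leaving out 1 array. Between the strains, the Bonferroni threshold was passed in each sex by 2 of 10 members, *Pld1* and *Gdpd3*, whose values chose the family and which are no test of it. With Benjamini-Hochberg adjustment the counts that include them were 5 in males and 7 in females. Of the 8 members other than *Pld1* and *Gdpd3*, 3 were called in males, 5 with all 24 arrays in 1 fit or with dim probe sets left out, and 2 to 4 with each array left out. In females 5 were called, 3 with the methods' t-test or without BPN/3J female arrays 2 and 5, and 2 to 5 with each array left out. The sex calls numbered 5 in BPN/3J (4 to 6 over the alternatives, 4 to 6 with each array left out) and 4 in BPH/2J (3 to 5 and 3 to 5), and the interaction called 0 of the 8 members throughout. The log2 difference changed sign for *Gdpd2* between male strains (−0.0882 to 0.029 with each array left out), and between BPH/2J sexes for *Pld4* (−0.0596 to 0.041), *Pld6* (−0.00633 to 0.0623, and −0.00233 with a common median) and *Gde1* (−0.0287 with a common median), none of which had passed.

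The labels do not say what arrays with the same replicate number share. Such arrays deviated from their group means with r from −0.57 to 0.44. The best match had the same number for 0 of 6 pairs between male strains and 2 of 6 between female strains. Between the sexes it did so for 2 of 6 in BPN/3J and 3 of 6 in BPH/2J. Whether arrays of a number were handled together was not tested. With the replicate number as a block, 3 of the 8 members were called in females, and *Pld4* was lost in males (adjusted p = 0.0567) and females (adjusted p = 0.0884), *Pld3* in females (adjusted p = 0.0796) and *Pld1* between BPH/2J sexes (adjusted p = 0.0594), while *Pld1* passed between BPN/3J sexes (adjusted p = 0.0217). *Gdpd1* was lost in males with the methods' t-test (adjusted p = 0.0743), as was *Pld2* in females (adjusted p = 0.0528) and *Pld4* in females (adjusted p = 0.0836). The calls of *Gdpd5* between the strains and of *Gdpd1*, *Gdpd2* and *Gdpd5* between the sexes were kept under every alternative that gave a value. *Gdpd2* has no value with dim probe sets left out. *Pld2* in males also passed with the robust, trended variance model (adjusted p = 0.0325), dim probe sets left out (adjusted p = 0.0297) and single-symbol probe sets (adjusted p = 0.0447). The cause of these changes was not tested.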
